A study of Sparus aurata with 30 samples.

Results

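The diet difference common to 3 organs (head kidney, intestine, liver) of a fish farmed in the sea, the gilthead sea bream Sparus aurata, was measured as an average. For each gene, the differences between fish fed brewer's spent dry yeast (SDY) and fish fed the control diet were taken on the log2 scale within each tissue, and the 3 differences were averaged with equal weight. Spent yeast is the yeast left after brewing. Per the series' design text it made up 30% of the SDY diet, in which it took the place of fish meal (10%) and of plant protein (31.4%). The groups are Head_Kidney_SDY, Head_Kidney_Control, Intestine_SDY, Intestine_Control, Liver_SDY and Liver_Control, with 5 libraries each, 30 in all. Of these, 28 were used, since Head_Kidney_Control replicates 1 and 3 were left out, which leaves 3 control head kidneys. Per the labels, RNA came from randomly chosen fish, 5 per tissue, by poly(A) selection. The labels give no age or feeding time, and they do not say which libraries of different tissues come from the same fish. P-values therefore measure the spread between libraries, with the 28 libraries taken as independent.

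Yeast cells bring wall sugars such as beta-glucans and mannans, which fish immune cells recognise, and they are rich in protein and nucleic acids. Head kidney forms blood cells and immune cells in bony fish. Intestine takes up the digested diet and liver processes what has been absorbed, so a change of protein source can be met in each of the 3 organs. An averaged difference favours genes that moved the same way in these organs, but a large difference in a single organ can also carry it.

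The 28 libraries held 9276705 to 20580440 counts. Head_Kidney_Control replicate 1 held 926 counts, and replicate 3 held 16459444 counts but averaged 2820 CPM (counts scaled to library size) over 8 hepatocyte markers, against 7.62 to 8.98 CPM in the other control head kidneys. The labelled tissues carried their markers. List levels and those of cpb1 in this paragraph are scaled to the plain library total. Averages of the other single genes also use the scaling of the fit. The hepatocyte list averaged 3446 to 6118 CPM in livers and at most 37.4 CPM elsewhere, and the absorptive enterocyte list averaged 649 to 1803 CPM in intestines and at most 24.9 CPM elsewhere. Renal tubule markers averaged at most 0.854 CPM in head kidneys. Livers also held the pancreatic enzyme gene cpb1, at 5593 to 18738 CPM under SDY and 3629 to 12174 CPM under control. Markers of interrenal and chromaffin cells averaged 219 and 93.5 CPM in SDY head kidney replicates 3 and 4. The other SDY head kidneys had 3.42 to 4.02 CPM and control head kidneys 1.65 to 2.50 CPM. Diets did not overlap, as in 7.74% of all single genes in head kidney. The difference in the hepatocyte list, at 15.5 to 21.1 CPM in SDY intestines and 22.1 to 37.4 CPM in control intestines, lay mostly in rbp4, the retinol carrier (138 and 211 CPM on average), while its other 7 members averaged at most 6.28 CPM. In the myeloid list, lect2 averaged 2520 CPM in SDY livers and 4943 CPM in control livers, while the myeloid markers csf1r (8.49 and 8.40 CPM), mpeg1 (21 and 17.5 CPM), spi1 (13.3 and 11.5 CPM) and csf3r (16.2 and 15.6 CPM) were not lower under SDY. The part of interrenal and chromaffin cells in the results was not tested.

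The averaged difference passed an adjusted p of 0.05 in 20 of 13797 genes, or 0.145% (edgeR's quasi-likelihood test with Benjamini-Hochberg adjustment). These 13797 of the 25722 genes in the files had enough counts in each of the 3 tissues. Under SDY, 6 genes were higher (0.0435%) and 14 were lower (0.101%). At an unadjusted p of 0.05, 2284 genes passed (16.6%), of which 1044 were higher and 1240 lower. Within a single tissue of the same fit, 0 head kidney genes, 1 intestine gene and 41 liver genes passed the adjusted threshold (0%, 0.00725% and 0.297%), beside 979, 1074 and 1841 genes (7.1%, 7.78% and 13.3%) at an unadjusted p of 0.05. The count of 20 rests on the libraries used, since leaving out 1 library moved it by more than 1.5 times for 25 of 28 libraries. It was 0 without Head_Kidney_Control replicate 5 and 1090 without Intestine_Control replicate 4. DESeq2 called 336 genes, the 20 among them. Limma voom called 5, as did edgeR with genes filtered over the 6 groups or not filtered, each within the 20. A mean over only intestine and liver called 1, over head kidney and liver 13 and over head kidney and intestine 0.

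Of the 13797 genes, 5706 (41.4%) had the same sign in head kidney, intestine and liver, 2726 of them higher under SDY (19.8%) and 2980 lower (21.6%). From the shares of genes above and below 0 in each tissue alone, 24.9% would share a sign. Genes are not independent of each other, and no test is attached. Same signs were found in 58.9% of genes between head kidney and intestine, in 60.4% between head kidney and liver and in 63.4% between intestine and liver. All 20 genes past the threshold had the same sign in the 3 tissues, but such genes have the larger averages, so this follows in part from averaging.

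Across the 13797 genes, the differences of head kidney and intestine correlated with Pearson's r = 0.206 (Spearman's rho 0.205), those of head kidney and liver with r = 0.282 (rho 0.265) and those of intestine and liver with r = 0.350 (rho 0.359). Standard errors (SE) from leaving out each library in turn were 0.157, 0.148 and 0.15. The 3 correlations share libraries, so these errors are not independent, and a difference between the correlations was not tested. The points are genes of the same libraries, and no p is given. Correlations were lower in the 4599 genes with the fewest counts (0.180, 0.213 and 0.306) than in the 4599 of middle counts (0.269, 0.355 and 0.381) and the 4599 with the most (0.226, 0.315 and 0.390). They were lower still when genes were filtered over the 6 groups (0.0752, 0.151 and 0.181) or not filtered (0.0560, 0.0948 and 0.113), which adds genes of few counts. Adjusting for the length of the gene span and for abundance gave 0.217, 0.286 and 0.337.

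**Figure D1:**
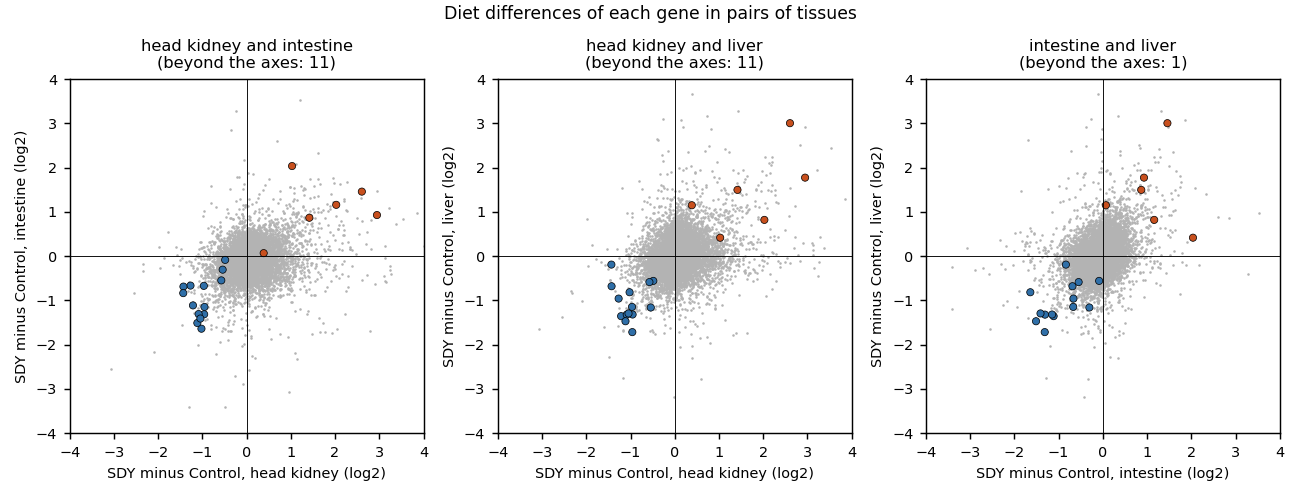
SDY minus Control on the log2 scale for each of 13797 genes (grey) in 2 tissues at a time, with the 6 genes past the threshold and higher under SDY in orange and the 14 lower in blue. The clouds lean along the diagonal with r of 0.206, 0.282 and 0.350, and the coloured genes lie in the quadrants of shared sign.

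The 5 genes with the smallest p carry LOC identifiers, which the files do not pair with a product, so only their values are given. Coordinates are those of the files, on assembly fSpaAur1.1. LOC115589080 (chromosome 10, 10514318 to 10518265) was lower in all 3 tissues. It had 1.89, 1.01, 0.869, 0.869 and 1.34 CPM in SDY intestines, against 3.49, 2.53, 3.47, 2.34 and 3.29 CPM in control intestines. In livers it had 0.588, 0.600, 1.43, 0.365 and 0.218 CPM under SDY and 2.42, 0.749, 2.41, 1.87 and 1.91 CPM under control. Its raw counts in livers were 4, 5, 6, 4 and 2 under SDY and 20, 7, 21, 12 and 16 under control. Counting error is large at such levels. Diets did not overlap in intestine, where 0.66% of all genes do not, and they overlapped in liver. In head kidney it had 3.32, 1.69, 3.50, 1.85 and 1.45 CPM under SDY and 5.43, 2.94 and 5.46 CPM under control, and its averaged difference was -1.33 ± 0.21 (log2, SE; adjusted p = 0.0123).

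LOC115588458 (chromosome 9, 34455555 to 34468151) and LOC115588457 (chromosome 9, 34445986 to 34458894) overlap on the same strand of chromosome 9, and reads over the overlap were counted for both, so their values are not independent. LOC115588458 was higher under SDY by 2.36 ± 0.39 (adjusted p = 0.0123). It had 60.5, 26.1, 15.8, 5.65 and 10.1 CPM in SDY livers, against 3.87, 3.21, 3.22, 2.49 and 1.79 CPM in control livers, and 10.6, 6.41, 19.3, 13.7 and 17.6 CPM in SDY intestines, against 6.41, 5.18, 3.52, 6.39 and 3.05 CPM in control intestines. In both organs the lowest SDY library was above the highest control library, in intestine by less than the digits given. In head kidney it had 15.5, 91.7, 16.1, 17.1 and 4.96 CPM under SDY and 7.24, 4.43 and 2.65 CPM under control, with replicate 2 far above the other SDY libraries. LOC115588457 was higher by 1.26 ± 0.22 (adjusted p = 0.0153), with 13, 11.6, 13.5, 12.5 and 5.77 CPM in SDY head kidneys against 4.07, 4.93 and 3.63 CPM in control head kidneys.

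LOC115581573 (chromosome 5, 31576712 to 31673124) was lower in all organs, with differences of -1.21 ± 0.37 in head kidney, -1.11 ± 0.36 in intestine and -1.36 ± 0.34 in liver (log2, SE), and an average of -1.23 ± 0.20 (adjusted p = 0.0123). It had 104, 50.6, 76.6, 112 and 186 CPM in SDY head kidneys, against 283, 176 and 277 CPM in control head kidneys. The highest SDY head kidney, replicate 5, overlapped the lowest control, while all SDY livers (22.3, 16.6, 8.12, 16.4 and 22.4 CPM) were below all control livers (52.1, 24.4, 65.4, 33.9 and 45.7 CPM). Diets do not overlap in liver in 1.53% of all genes. LOC115572578 (chromosome 21, 4063322 to 4074687) was lower, with an average of -1.24 ± 0.22 (adjusted p = 0.0264), with 208, 107, 191, 204 and 362 CPM in SDY head kidneys and 585, 264 and 518 CPM in control head kidneys, where the highest SDY library again overlapped the lowest control.

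The other 11 genes without a name had adjusted p of 0.0344 to 0.0481. Those higher under SDY were LOC115585860, LOC115578386 and LOC115584141, with averages of 1.16 ± 0.22, 1.34 ± 0.28 and 1.88 ± 0.40. Over 41 alternatives, these 11 passed in 10 (LOC115584141) to 19 (LOC115585860). LOC115585860 was uneven, with 2.04 ± 0.37 in intestine and 0.42 ± 0.36 in liver. In LOC115585860, LOC115578386 and LOC115584141, diets did not overlap in head kidney, where 7.74% of all genes do not. The lower ones were LOC115566288, LOC115584959, LOC115586722, LOC115576215, LOC115569030, LOC115576209, LOC115573936 and LOC115580677, with averages of -1.37 to -0.67. The spans of LOC115585860, LOC115578386 and LOC115586722 each overlap another gene. Of all 20 genes past the threshold, 16 carry LOC identifiers and 13 had an unadjusted p under 0.05 in each tissue. In 3 of the 20, LOC115588458, LOC115588457 and ube2r2, diets did not overlap in 2 tissues (0.145% of all genes), and in 0 of 20 in all 3 (0%).

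The 4 genes past the threshold that have a name are suox, mak, ube2r2 and gadd45g. Sulfite oxidase, suox, is the mitochondrial molybdenum enzyme of the last step in breaking down the sulfur of cysteine and methionine. It fell by nearly the same amount in each organ, with differences of -0.57 ± 0.22 in head kidney, -0.55 ± 0.20 in intestine and -0.59 ± 0.19 in liver, and the test of a difference between tissues gave an unadjusted p of 0.991. In livers, where it was most abundant, it had 129, 77.6, 156, 83.7 and 119 CPM under SDY and 148, 151, 248, 138 and 161 CPM under control. SDY intestines had 5.73, 4.75, 5.03, 4.34 and 5.16 CPM, all below the control intestines with 6.16, 8.03, 7.25, 7.17 and 8.04 CPM. In intestine, 0.66% of all genes lack overlap between diets. Head kidneys had 15.2, 10.6, 13.6, 16.7 and 22.3 CPM under SDY and 28.3, 18.9 and 22.9 CPM under control. The averaged difference was -0.57 ± 0.12 (adjusted p = 0.0480), past the threshold in 13 of 41 alternatives.

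The kinase gene mak is known in mammals from male germ cells and from cilia. It fell, with an averaged difference of -0.93 ± 0.18 (adjusted p = 0.0344). SDY livers had 5.14, 6.12, 9.79, 6.48 and 7.09 CPM, against 14.7, 10.6, 9.54, 10.1 and 10.0 CPM in control livers, and the highest SDY liver lay just above the lowest control. In head kidney it had 0.310, 0.549, 0.632, 0.402 and 1.15 CPM under SDY and 2.15, 0.995 and 1.84 CPM under control, and in intestine 0.600, 0.792, 0.993, 0.307 and 0.981 CPM under SDY and 1.02, 1.49, 1.26, 0.818 and 1.35 CPM under control, levels at which counting error is large. It passed in 19 of 41 alternatives, ube2r2 in 20 and gadd45g in 23. The ubiquitin-conjugating enzyme gene ube2r2 fell, with an averaged difference of -0.38 ± 0.07 (adjusted p = 0.0344), with 32.6, 33.3, 48, 48.9 and 31.5 CPM in SDY livers against 64.1, 49.7, 61.6, 61.7 and 49.2 CPM in control livers. SDY head kidneys had 43.2, 43.8, 38.1, 45.9 and 45.4 CPM and control head kidneys 68.1, 54.4 and 59.4 CPM. Diets did not overlap in these organs, but its intestine difference was -0.09 ± 0.12, and the test between tissues gave an unadjusted p of 0.0242.

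The stress-inducible gene gadd45g, of a family that acts in growth arrest and DNA damage signalling, rose by 0.53 ± 0.10 (adjusted p = 0.0344). Most of that average came from liver, with 68, 46.8, 37, 46.8 and 40.1 CPM under SDY and 24.4, 15.9, 19.8, 25.3 and 22.2 CPM under control. Its differences were 0.39 ± 0.19 in head kidney and 0.07 ± 0.17 in intestine against 1.15 ± 0.17 in liver, and the test between tissues gave an unadjusted p of 0.000373. Over all genes, 870 (6.31%) had an unadjusted p under 0.05 in that test and 2 passed after adjustment (0.0145%), fosl2 and hemk1. Among the 20 genes past the threshold, 4 had an unadjusted p under 0.05 for a difference between tissues and 0 an adjusted one.

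**Figure D2:**
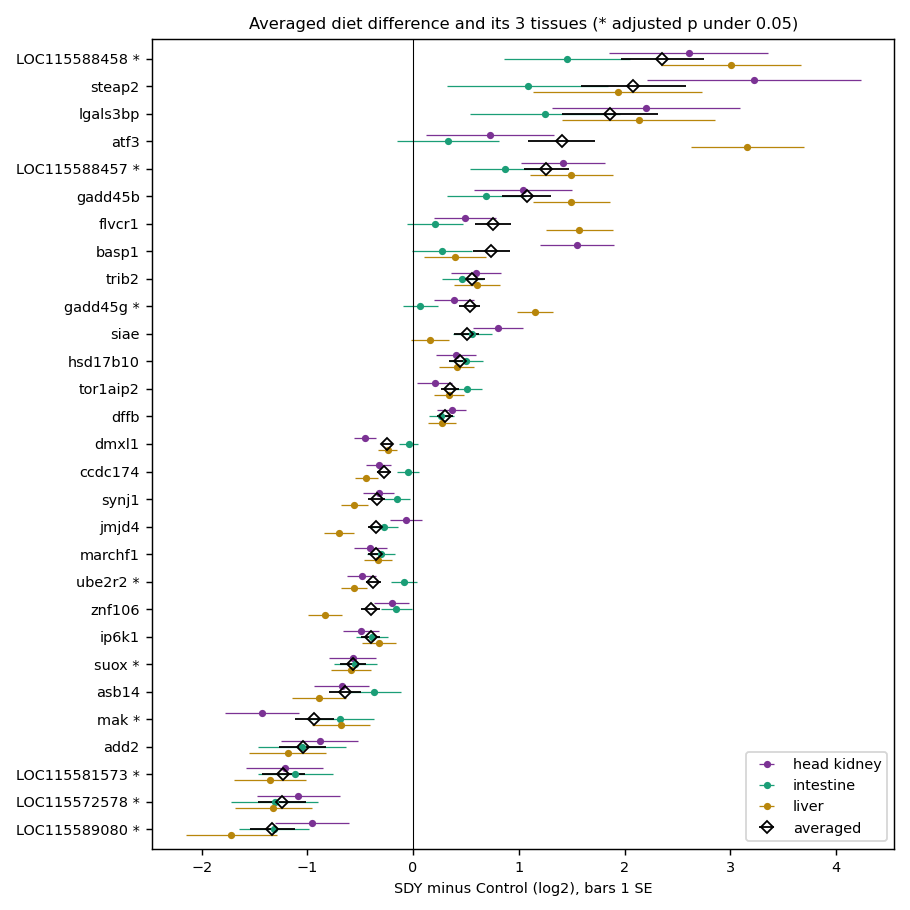
SDY minus Control on the log2 scale, with 1 SE, of the 5 genes with the smallest p and of the 12 named genes per direction with the smallest p, in each tissue (points) and averaged (diamonds). Stars mark the 9 of these 29 genes past the threshold, and in suox, hsd17b10, trib2 and marchf1 the 3 tissues lie close together while in atf3 and gadd45g liver lies apart.

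No other named gene passed the threshold, and the named genes of shared sign that follow had adjusted p of 0.0524 to 0.0723. Some of them differed by like amounts in all organs. The gene hsd17b10 encodes a mitochondrial dehydrogenase of isoleucine breakdown that is also part of the enzyme trimming mitochondrial tRNAs, and its averaged difference was 0.44 ± 0.10 (adjusted p = 0.0539). It had 22.9, 17.9, 22, 20.4 and 18.9 CPM in SDY head kidneys, all above the controls with 15.8, 15.8 and 14.7 CPM. Diets do not overlap in head kidney in 7.74% of all genes. SDY intestines had 30.6, 30.0, 27.9, 36.7 and 36.7 CPM and control intestines 12.9, 24.8, 21.4, 34.3 and 20.9 CPM, with the control value of 34.3 CPM in replicate 4. Without that library its averaged difference was 0.50, with an adjusted p of 0.00648, but 7.89% of all genes passed the threshold in that fit. Over 41 alternatives, hsd17b10 passed in 7. The pseudokinase gene trib2 differed by 0.56 ± 0.13 (adjusted p = 0.0539), with 6.76, 6.84, 5.97, 12.2 and 7.74 CPM in SDY livers and 5.32, 6.63, 4.37, 4.51 and 5.37 CPM in control livers. For dffb, the nuclease that cuts DNA in apoptosis, the difference was 0.30 ± 0.07 (adjusted p = 0.0723), though its span overlaps c7h1orf174.

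Among genes with lower values under SDY, marchf1, a ubiquitin ligase that in mammals removes class II antigen-presenting molecules from the cell surface, differed by -0.41 ± 0.16 in head kidney, -0.30 ± 0.13 in intestine and -0.33 ± 0.13 in liver (average -0.35 ± 0.08, adjusted p = 0.0683). SDY livers had 24.5, 25.1, 22.7, 26.9 and 24.8 CPM and control livers 41.7, 31.6, 30.5, 27.8 and 24.8 CPM. The inositol phosphate kinase gene ip6k1 differed by -0.40 ± 0.09 (adjusted p = 0.0635). It had 30.6, 30.5, 34.8, 33.9 and 31.3 CPM in SDY head kidneys, all below the controls with 53.5, 40.7 and 41.9 CPM. In head kidney, 7.74% of all genes lack overlap between diets. The lipid phosphatase gene synj1 differed by -0.34 ± 0.08 and dmxl1, of the proton pump's assembly, by -0.25 ± 0.06. The remaining lower genes of this group were add2, znf106, asb14, ccdc174 and jmjd4, with averages of -1.04 to -0.27. In znf106 and jmjd4 the liver difference was the largest of the 3, at -0.83 ± 0.16 and -0.70 ± 0.14. The span of jmjd4 overlaps iba57 and snap47, and that of marchf1 overlaps tma16, so their counts may hold reads of these neighbours.

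The other genes with higher values were gadd45b, flvcr1, atf3, siae, steap2, basp1, lgals3bp and tor1aip2. For atf3, a transcription factor gene induced by many stresses, SDY livers had 109, 69.7, 20.8, 105 and 86.9 CPM against 8.82, 6.10, 7.24, 7.93 and 13.7 CPM in control livers, without overlap, as in 1.53% of all genes in liver. The same gene had 26.5, 12.8, 24.2, 53.5 and 40.7 CPM in SDY intestines and 8.95, 13, 34.3, 54.8 and 14 CPM in control intestines, which overlapped, and its average of 1.41 ± 0.31 (adjusted p = 0.0539) came mainly from liver. The exporter gene flvcr1, a transporter tied to haem and choline in mammals, was likewise largest in liver at 1.57 ± 0.31, against 0.49 ± 0.29 in head kidney and 0.21 ± 0.26 in intestine. The gene lgals3bp, for a secreted galectin-binding glycoprotein, had 4933, 1681, 574, 169 and 572 CPM in SDY livers and 597, 219, 399, 304 and 286 CPM in control livers. Its intestines had 172, 85.8, 175, 90.3 and 232 CPM under SDY, all above the 69.4, 48.7, 80.2, 66.5 and 52.9 CPM under control. Diets do not overlap in intestine in 0.66% of all genes. The average of lgals3bp was 1.86 ± 0.45 (adjusted p = 0.0700). The metalloreductase gene steap2 had 11, 1.14, 5.48, 5.78 and 5.69 CPM in SDY head kidneys and 0.339, 0.796 and 0.703 CPM in control head kidneys, and its average was 2.08 ± 0.50 (adjusted p = 0.0683). The spans of steap2 and siae overlap alg14 and tbrg1, in that order. The average of siae was 0.51 ± 0.12, and -0.07 with all 30 libraries.

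**Figure D3:**
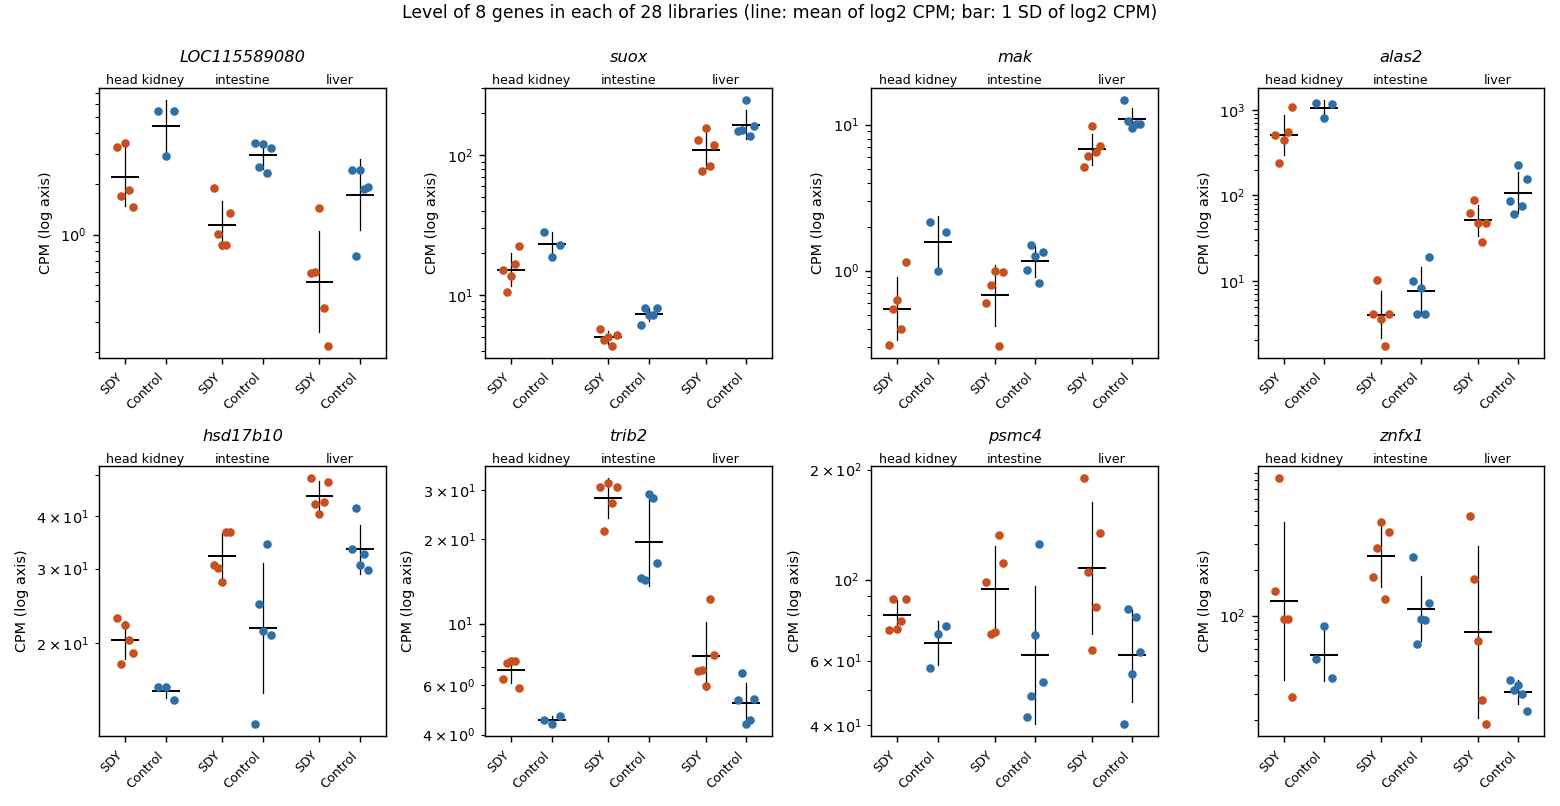
CPM on a log axis in each of 28 libraries (points) for 8 genes, SDY left of Control within each tissue, with the mean and 1 SD of log2 CPM. In LOC115589080, suox, mak and alas2 the SDY means lie below the control means in all 3 tissues, and in hsd17b10, trib2, psmc4 and znfx1 above, with diets overlapping in most panels.

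Red blood cells of fish keep their nucleus and make haem, globin and membrane skeleton proteins. The erythroid list had a median of -0.40 under SDY (-0.82 in head kidney, -0.18 in intestine, -0.19 in liver). Its mean level overlapped between diets, at a mean of 132 to 348 CPM in SDY head kidneys and 261 to 389 CPM in control head kidneys, 6.22 to 9.59 CPM in SDY intestines and 6.22 to 10.2 CPM in control intestines, and 7.07 to 13.2 CPM in SDY livers and 8.43 to 25.9 CPM in control livers. These list levels are scaled to the plain library total, unlike the CPM of single genes below. Of 19 markers on the erythroid list, 7 are in the files under that symbol and 5 could be tested. Of these, 3 (alas2, rhag and uros) had the same sign and an unadjusted p under 0.05, beside 8.99% of all genes lower at that p, and 0 passed the adjusted threshold. The gene alas2 encodes the first enzyme of haem synthesis in red cells and differed by -1.0 ± 0.28 (adjusted p = 0.101). It had 512, 241, 445, 558 and 1089 CPM in SDY head kidneys, against 1212, 806 and 1176 CPM in control head kidneys, and the highest SDY library, replicate 5, overlapped the lowest control. SDY livers had 61.8, 87.7, 47.3, 28.8 and 47 CPM and control livers 86.8, 60.8, 229.7, 74.3 and 158 CPM. The membrane ammonium channel gene rhag differed by -0.70 ± 0.20 (adjusted p = 0.108), with 552, 321, 390.2, 335 and 589 CPM in SDY head kidneys and 743, 497 and 732 CPM in control head kidneys. For the later haem synthesis genes, uros differed by -0.40, while fech and urod had mixed signs at -0.10 and -0.03. In bulk tissue, fewer cells of a type and less RNA per cell cannot be told apart.

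Adducins link spectrin to actin under the red cell membrane. The averaged difference of add2 was -1.04 ± 0.22 (adjusted p = 0.0524), with 32.3, 13.5, 35, 32 and 66.8 CPM in SDY head kidneys against 79.3, 44.1 and 75.8 CPM in control head kidneys. SDY livers had 3.09, 3.72, 1.91, 3.65 and 6.22 CPM and control livers 11.1, 4.82, 11.8, 6.53 and 9.19 CPM. For add1, whose product is found in many cell types, it was -0.21 ± 0.06 (adjusted p = 0.0967). It was chosen after its values were seen. Within SDY head kidneys, replicate 5 was the highest and replicate 2 the lowest for alas2, add2, LOC115581573 and LOC115572578 alike.

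Among the genes past the threshold, LOC115576215 and LOC115576209 lie in a run of 10 neighbouring genes without names on chromosome 23, 24100145 to 24126695. The run was looked at after these values were seen. Of its 10 genes, 4 were abundant enough to be tested, and all 4 had lower values under SDY. LOC115576215 had an average of -1.37 ± 0.27 (adjusted p = 0.0391) and LOC115576209 of -1.25 ± 0.26 (adjusted p = 0.0479), while LOC115576217 at -1.23 ± 0.26 and LOC115576208 at -1.21 ± 0.27 had adjusted p of 0.0526 and 0.0539. LOC115576215 had 2676, 1797, 2894, 3884 and 4867 CPM in SDY head kidneys, against 9566, 4840.3 and 6533 CPM in control head kidneys. SDY livers had 199, 119, 100.03, 67.7 and 118 CPM and control livers 277, 191, 659, 184 and 364 CPM, and in both organs the highest SDY library was above the lowest control.

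The 4 tested genes of the run together held 2.46 ± 0.825% of all counts in SDY head kidneys (SD, n = 5) and 4.72 ± 1.20% in control head kidneys (SD, n = 3). In livers they held 0.0585 ± 0.0210% under SDY and 0.149 ± 0.0977% under control, and in intestines 0.00765 ± 0.00284% under SDY and 0.0190 ± 0.0117% under control (SD, n = 5 each). The ranges met in head kidney, at 1.43 to 3.52% under SDY and 3.52 to 5.91% under control. The 4 tested genes may share reads if their sequences are near-identical copies, and the counting could not resolve this, so they are not 4 independent results.

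The proteasome, which breaks down ubiquitin-tagged proteins, had the largest share of members at an unadjusted p under 0.05 (81.5%) among lists with at least 5 tested members. Of 48 symbols, 27 were tested, and 24 of the 27 were higher under SDY in all 3 tissues, beside 19.8% of all genes. At an unadjusted p of 0.05, 22 were higher and 0 lower, beside 7.57% and 8.99% of all genes, and 0 of the 27 passed the adjusted threshold. The list's median difference was 0.38, with 0.25 in head kidney, 0.43 in intestine and 0.47 in liver, against -0.01 over all genes. These members are subunits of the same complex, so they are not independent of each other.

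The members with the smallest p are subunits of the cap that unfolds proteins for the proteasome. For psmd3 the averaged difference was 0.34 ± 0.11 (adjusted p = 0.129) and for the ATPase psmc4 it was 0.54 ± 0.17 (adjusted p = 0.136). SDY livers had 189, 105, 64.2, 83.9 and 134 CPM of psmc4 and control livers 40.2, 82.8, 55.1, 79.2 and 63.5 CPM. In SDY intestines psmc4 had 98.4, 70.8, 71.6, 132 and 111 CPM and in control intestines 42.1, 48, 70.6, 125 and 52.3 CPM, with the control maximum in replicate 4. That library was high over the whole list, since SDY intestines averaged 79.3 to 155 CPM and control intestines 52.9 to 86.3 CPM apart from replicate 4 with 154 CPM. It was also highest among control intestines in DNA replication and mitosis genes (42.8 CPM, the others 6.07 to 19.1) and in aminoacyl-tRNA synthetases (265 CPM, the others 84.4 to 145). In enterocyte markers, scaled to the plain library total, it was lowest (649 CPM, the others 1213 to 1803). The part of these in the result was not tested. Without it, 23 of 27 members were higher past the adjusted threshold, beside 7.89% of all genes called in that fit (4.31% higher and 3.58% lower), and the list's median was 0.50. This was 1 of 28 omissions, and in the other 27 the threshold was passed by 0 members. Without Intestine_SDY replicate 4, the SDY library at 155 CPM, the median was 0.32.

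**Figure D4:**
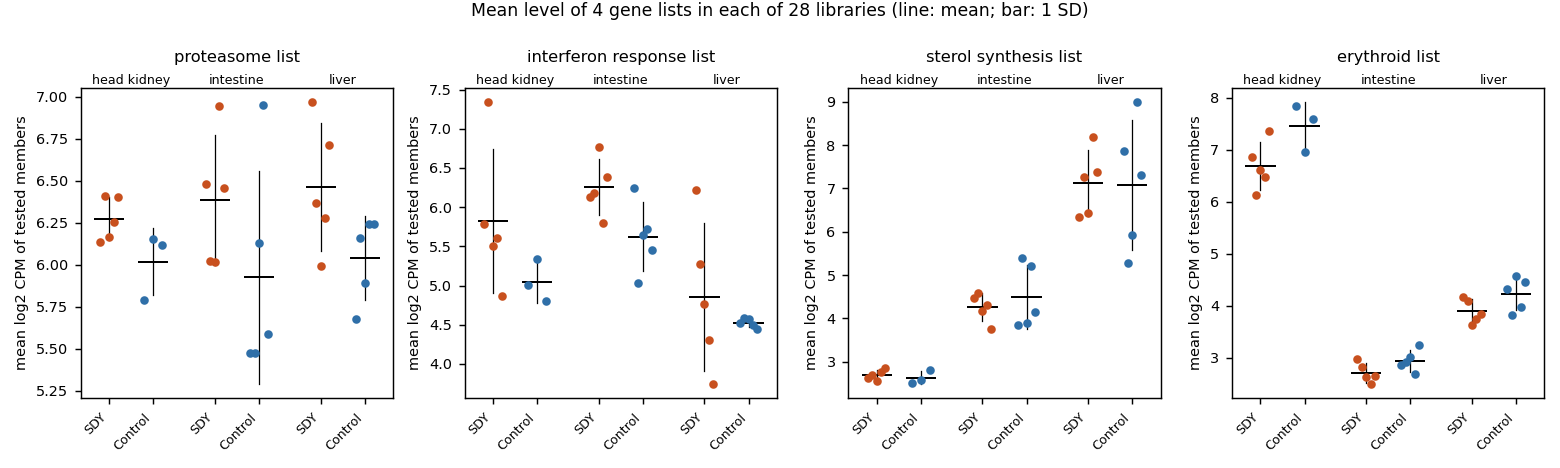
Mean log2 CPM over the tested members of 4 gene lists in each of 28 libraries (points), SDY left of Control, with the mean and 1 SD. The highest proteasome level among control intestines is replicate 4, and the highest interferon levels are SDY replicate 2 in head kidney, replicate 3 in intestine and replicate 1 in liver.

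Interferon response genes, which are switched on when cells sense viral nucleic acid or interferon, had the largest list median, 0.79, with 1.07 in head kidney, 0.53 in intestine and 0.79 in liver. Of 42 symbols, 16 were tested, and 12 were higher in all 3 tissues, beside 19.8% of all genes. The same number were higher at an unadjusted p under 0.05, beside 7.57% of all genes. The adjusted threshold was passed by 0 of 16. The RNA helicase gene znfx1 differed by 1.81 ± 0.46 (adjusted p = 0.0768) and the mitochondrial nucleotide kinase gene cmpk2 by 1.55 ± 0.41 (adjusted p = 0.0841). In the list, dhx58, ifih1 and tlr3, whose products sense double-stranded RNA, had averages of 1.60, 1.03 and 0.55. They were picked from the list for that function and are not its 2 members of smallest p. Over 41 alternatives, tlr3 passed the threshold in 0.

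The spread between SDY fish was wide in this list. Over its tested members, mean log2 CPM in SDY livers was 6.21, 5.27, 4.77, 4.31 and 3.74, against 4.44 to 4.59 in control livers. SDY livers of replicates 4 and 5 thus lay below every control liver, and the group means were 4.86 under SDY and 4.53 under control. For znfx1, SDY head kidneys had 146, 825, 94.9, 94.5 and 28.4 CPM and control head kidneys 51, 84.5 and 38.4 CPM. SDY livers had 459, 174, 67.8, 27.1 and 18.9 CPM and control livers 37.3, 32, 34.6, 29.7 and 23 CPM, so that SDY replicates 1, 2 and 3 lay above every control liver and replicates 4 and 5 did not. SDY intestines had 182, 282, 421, 129.5 and 360.2 CPM and control intestines 245, 64.4, 95, 92.7 and 121 CPM. Diets overlapped in all 3 organs, and the list's median was 0.57 without Liver_SDY replicate 1 and 0.86 without Liver_SDY replicate 5. Genes for class I antigen processing were tested in 6 members, of which 4 were higher in all tissues (beside 19.8% of all genes). At an unadjusted p under 0.05, 2 were higher (beside 7.57% of all genes). They were tapbp, the peptide-loading chaperone, at 0.43 ± 0.14, and erap2, a peptide-trimming enzyme, at 0.56 ± 0.18 (adjusted p = 0.142 and 0.145).

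Immediate early genes, amino acid stress genes and aminoacyl-tRNA synthetases had positive averages that came mainly from liver. Of 18 immediate early genes tested, 1 passed the threshold (gadd45g), beside 0.145% of all genes. At an unadjusted p under 0.05, 9 were higher (beside 7.57% of all genes), and 7 were higher in all 3 tissues (beside 19.8%). Their median was 0.39, made of 0.92 in liver, 0.23 in head kidney and -0.0023 in intestine. For gadd45b, the average was 1.08 ± 0.23 (adjusted p = 0.0533), with 20.9, 13, 8.83, 12.3 and 35.1 CPM in SDY livers, all above the control livers with 7.37, 7.60, 6.44, 6.07 and 4.54 CPM. Diets do not overlap in liver in 1.53% of all genes. The most uneven member was fosl2, a partner of Jun, with 2.65 in liver, -0.39 in head kidney and -0.04 in intestine (adjusted p = 0.00371 for a difference between tissues).

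Of 17 aminoacyl-tRNA synthetases, the enzymes that charge tRNAs with amino acids, 9 were higher in all 3 tissues (beside 19.8% of all genes) and 7 were higher at an unadjusted p under 0.05 (beside 7.57%). Their median was 0.27 (0.67 in liver, 0.16 in intestine, 0.07 in head kidney), and it was 0.45 without Intestine_Control replicate 4 and 0.21 without Intestine_SDY replicate 4. The histidine enzyme hars1 differed by 0.46 ± 0.13 (adjusted p = 0.108) and the methionine enzyme mars1 by 0.24 ± 0.08 (adjusted p = 0.133) (0.67 in liver, -0.04 in intestine). The span of mars1 overlaps ddit3. In 16 targets of ATF4, the transcription factor of amino acid shortage, and serine synthesis genes, 5 were higher and 1 lower at an unadjusted p of 0.05. The shares of all genes at that p were 7.57% and 8.99%. Of the 16, 3 were higher in all 3 tissues (18.8%), near the 19.8% of all genes, and 13 had mixed signs. Their median was 0.65 in liver, 0.04 in intestine and -0.12 in head kidney. The transporter gene slc7a3 differed by 0.55 ± 0.17 with mixed signs (adjusted p = 0.136), and cth, which makes cysteine, by 0.43 ± 0.14 with a shared sign (adjusted p = 0.147). SDY livers had 138, 206, 187, 291 and 273 CPM of slc7a3 and control livers 57.5, 87.9, 73.6, 163 and 62.9 CPM.

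**Figure D5:**
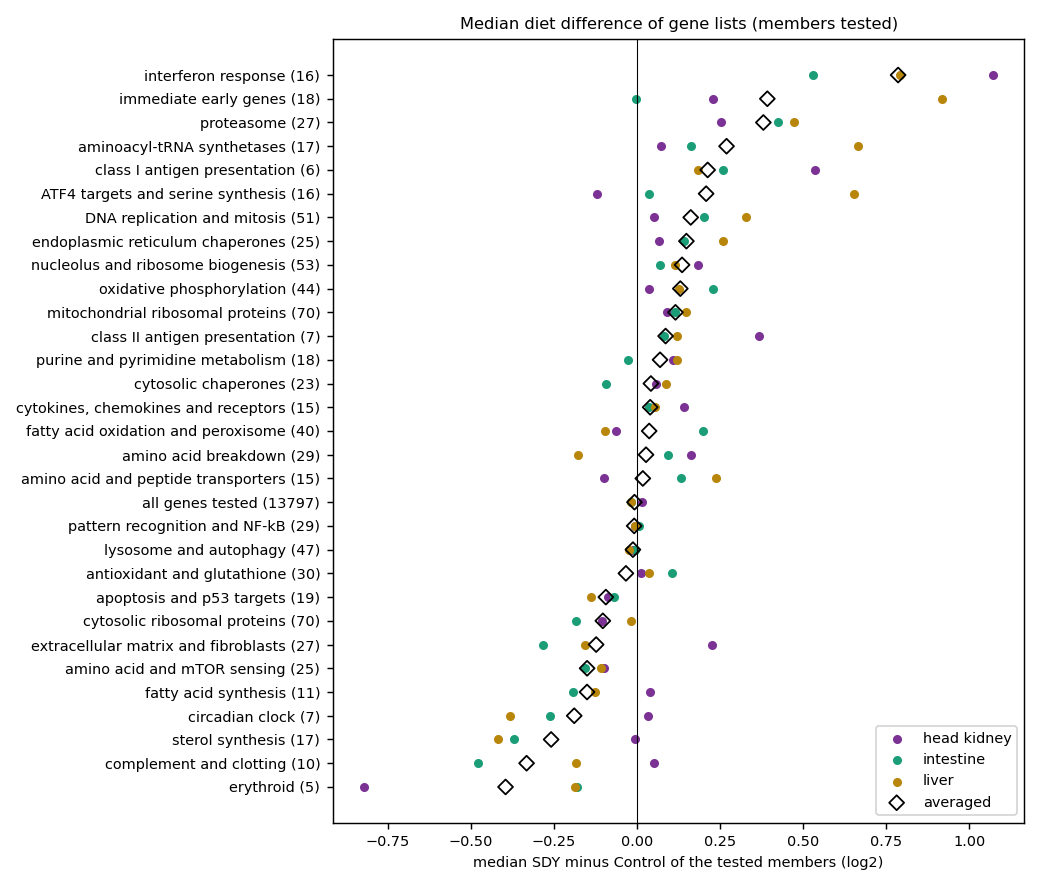
Median SDY minus Control on the log2 scale over the tested members (number in parentheses), in each tissue (points) and averaged (diamonds). Drawn are the pathway lists with at least 5 tested members and, of the marker lists, only the erythroid one. The hepatocyte marker list, not drawn, had a median of -0.37. The interferon, immediate early and proteasome lists lie highest at 0.79, 0.39 and 0.38, the erythroid list lowest at -0.40, and all genes at -0.01.

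Ribosomal proteins, the protein parts of the ribosome, had small differences. All 70 cytosolic ribosomal protein genes tested had averages below 0, with 47 lower in all 3 tissues, beside 21.6% of all genes. Their median was -0.10 (-0.10 in head kidney, -0.19 in intestine, -0.02 in liver), and 0 had an unadjusted p under 0.05 (beside 16.6% of all genes). The smallest p were those of rpl36a at -0.24 ± 0.13 and rpl7a at -0.17 ± 0.10 (adjusted p = 0.344 and 0.40). The median was -0.01 when all 30 libraries were used. Of the mitochondrial ribosome, 60 of 70 mitochondrial ribosomal protein genes had averages above 0 (beside 48.4% of all genes) and 43 were higher in all tissues (beside 19.8%). The share at an unadjusted p under 0.05, 14.3%, was near the 16.6% of all genes. Their median was 0.12, and 0.19 without Intestine_Control replicate 4. Of these, mrpl48 differed by 0.26 ± 0.10 and mrpl58, a rescue factor for stalled mitochondrial ribosomes, by -0.39 ± 0.16 (adjusted p = 0.220 and 0.227).

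Of 44 oxidative phosphorylation genes, 22 were higher in all 3 tissues and 3 lower (beside 19.8% and 21.6% of all genes), with a median of 0.13. The share at an unadjusted p under 0.05, 15.9%, was near the 16.6% of all genes. The complex I subunit gene ndufs1 lay on the other side at -0.38 ± 0.10 (adjusted p = 0.0857), with 40.0, 29.8, 37.2, 40.9 and 51.4 CPM in SDY head kidneys and 56.4, 49.2 and 62.2 CPM in control head kidneys, while ndufs5 of the same complex differed by 0.23 ± 0.09 (adjusted p = 0.195). The 30 antioxidant genes had a median of -0.03. In all 3 tissues, 8 were higher and 1 lower (beside 19.8% and 21.6% of all genes), and 21 had mixed signs. At an unadjusted p under 0.05, 6 were higher and 2 lower (beside 7.57% and 8.99% of all genes). Within the list gclm and gss, enzymes of glutathione synthesis, differed by 0.42 ± 0.12 and 0.60 ± 0.22 (adjusted p = 0.104 and 0.191). Control intestine replicate 4 had the highest gss level of its group at 44.8 CPM.

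Of 17 sterol synthesis genes, 10 were lower in all 3 tissues and 0 higher (beside 21.6% and 19.8% of all genes). But 1 had an unadjusted p under 0.05, 5.88% of the list beside 16.6% of all genes, and the spread was wide. The median was -0.26, with -0.37 in intestine, -0.42 in liver and -0.01 in head kidney. Insig1, which holds the sterol sensor in the endoplasmic reticulum, differed by -0.55 ± 0.22 (adjusted p = 0.218), and the sterol oxidase gene msmo1 by -0.81 ± 0.40 (adjusted p = 0.314). SDY livers had 384, 463, 400.4, 1013 and 528 CPM of msmo1 and control livers 2281, 103, 1194, 2052 and 832 CPM. Control livers thus lay both above and below all SDY livers, and without Liver_Control replicate 4 the list's median was -0.01.

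Genes around the nutrient-sensing kinase mTOR were tested in 25 members, with a median of -0.15. In all 3 tissues, 11 were lower and 3 higher, beside 21.6% and 19.8% of all genes. At an unadjusted p of 0.05, 5 were lower and 1 higher, 24% in all, beside 8.99% and 7.57% of all genes, 16.6% in all. The kinase gene eef2k, whose product slows translation elongation, differed by -0.37 ± 0.11 (adjusted p = 0.129), with 63.3, 66.6, 83.8, 65.2 and 60.3 CPM in SDY livers, all below the control livers with 95.1, 118, 116, 112 and 101 CPM. Diets do not overlap in liver in 1.53% of all genes. The gene depdc5, of a complex that restrains mTOR, differed by -0.15 ± 0.06, with like values of -0.12 ± 0.11, -0.17 ± 0.09 and -0.16 ± 0.09 in head kidney, intestine and liver (adjusted p = 0.195). Lists of innate recognition had medians near 0. The 29 pattern recognition and NF-kB genes had a median of -0.01, with 8 higher and 9 lower in all tissues (beside 19.8% and 21.6% of all genes). At an unadjusted p under 0.05, 5 were higher and 2 lower, 24.1% in all, beside 7.57% and 8.99% of all genes, 16.6% in all. Members thus moved in both directions. The 15 cytokine and receptor genes had a median of 0.04.

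Differences moved with the length of the gene span in the annotation. Averaged differences had a Spearman's rho of -0.18 with span length over 13797 genes, with -0.05 in head kidney, -0.24 in intestine and -0.13 in liver. In 5 bins of genes by span, the shortest had a median span of 3358 bases and a median difference of 0.04, and the longest had 49319 bases and -0.06. The authors counted reads over whole transcript spans, introns included, and the part of span length in single genes was not tested.

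An unadjusted p under 0.05 in each tissue with a shared sign was met by 36 of 13797 genes (0.261%), of which 13 were higher and 23 lower under SDY. Of these, 10 have a name: marchf1, add2, suox, c6h3orf14, hsd17b10, dffb, add1, mak, trib2 and rogdi. The group also holds the 4 tested genes of the chromosome 23 run and the 5 genes with the smallest p for the averaged difference.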

How the data were processed

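The deposited values are raw counts per gene. Per the file headers, the authors counted reads with featureCounts 1.5.3 over whole transcript spans of the fSpaAur1.1 annotation, introns included, with no strand setting and with reads in overlapping genes counted for each (15.3% of genes overlap another). Per the submitters' processing notes, Trim Galore 0.4.4, FastQC, HISAT2 2.1.0 and DESeq2 were used. The libraries were made with a directional kit, per the labels.

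Here, 1 edgeR 4.0.16 quasi-likelihood model (R 4.3.3) held 6 group means over 28 libraries with TMM scaling. Genes had to pass filterByExpr in each tissue (13797 of 25722). The averaged contrast was tested with Benjamini-Hochberg adjustment at 0.05, and the difference between tissues with 2 contrasts together. CPM values of single genes and of pathway lists are TMM-scaled. Levels of marker lists, and the ranges of cpb1 in livers, are scaled to the plain library total. The text names the 5 genes of smallest p, all genes past the threshold, 12 named genes of shared sign per direction and 2 per list by smallest p. Some further genes were chosen after their values were seen, as stated, and dhx58 and ifih1 were picked for their function. Members and lists were chosen with earlier results of these data known. Same-numbered libraries were not taken as pairs, since the labels do not say which libraries of different tissues come from the same fish. Not every pair's deviations correlated at over 0.1, but true pairs could miss this too, so it cannot decide the question. The fit was tested on simulated data. Alternatives included DESeq2 1.42.0 and limma 3.58.1.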

Additional observations from a re-analysis of the deposited data

Results flagged for a closer look

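Of 275 gene and group pairs with 5 libraries, 28 held a library far from the other 4 by Dixon's criterion on CPM. For normally distributed values, chance meets it in about 1 in 20 groups. The CPM were not put on a log scale and can be skewed, so that rate need not hold here. Head_Kidney_SDY replicate 2 accounted for 6, with the highest levels of LOC115588458 (91.7 CPM, the others 4.96 to 17.1), lgals3bp (311 CPM, the others 14.7 to 51.7), znfx1 (825 CPM), cmpk2 (127 CPM) and tor1aip2 (36.2 CPM) and the lowest of rpl7a (1636 CPM). Without it, the averaged difference passed the threshold in 7 genes instead of 20. Head_Kidney_SDY replicate 5 was highest for atf3 (13.3 CPM) and mars1 (76.7 CPM) and lowest for LOC115588457 (5.77 CPM).

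Intestine_Control replicate 4 was highest in its group for hars1 (89.6 CPM), slc7a3 (36.5 CPM) and gss (44.8 CPM). Intestine_SDY replicate 2 stood apart for ccdc174 (12.6 CPM), alas2 (10.2 CPM) and msmo1 (26.1 CPM), Intestine_SDY replicate 1 for rhag (6.28 CPM) and Intestine_Control replicate 2 for gadd45b (3.43 CPM). Liver_SDY replicate 4 was highest for trib2 (12.2 CPM) and msmo1 (1013 CPM) and lowest for siae (98.3 CPM), and Liver_SDY replicate 3 was highest for eef2k (83.8 CPM). Among control livers, replicate 2 was highest for steap2 (6.96 CPM), tor1aip2 (50.5 CPM) and erap2 (23.3 CPM). Replicate 1 was highest for mak (14.7 CPM), replicate 3 for suox (248 CPM) and replicate 4 for slc7a3 (163 CPM), and replicate 5 was lowest for mrpl48 (8.83 CPM).

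The diet difference itself differed between tissues for fosl2 (adjusted p = 0.00371, edgeR; 2.65 in liver, -0.39 in head kidney and -0.04 in intestine) and for hemk1, a methyltransferase gene (adjusted p = 0.0117; 1.20 in liver, 0.02 in head kidney and -0.41 in intestine). In Head_Kidney_Control replicate 3, which was left out, hepatocyte markers averaged 2820 CPM.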

How the results depend on the processing

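The 20 genes past the threshold kept their direction in 41 alternatives, but passed it in 10 (LOC115584141) to 37 of them. The count of 20 was 336 with DESeq2, 5 with limma voom, 5 with same-numbered libraries of a diet taken as correlated (consensus correlation -0.0068), 5 with genes filtered over the 6 groups and 5 with no filter. It was 150 with all 30 libraries and 152 with 29, and means of 2 tissues gave 1 without head kidney, 13 without intestine and 0 without liver. With no filter, r was 0.0560 between head kidney and intestine, 0.0948 between head kidney and liver and 0.113 between intestine and liver, and with the filter over 6 groups 0.0752, 0.151 and 0.181. Without 1 library, the count was 0 to 1090 and r was 0.103 to 0.261 (head kidney and intestine), 0.199 to 0.328 (head kidney and liver) and 0.254 to 0.404 (intestine and liver).

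The count was 1090 without Intestine_Control replicate 4, 133 without Head_Kidney_SDY replicate 5 and 121 without Liver_SDY replicate 3. It was 33 to 55 without Head_Kidney_Control replicate 4, Intestine_SDY replicate 2, Liver_SDY replicate 4 or Liver_Control replicates 2 or 4. It was 3 to 10 without Head_Kidney_Control replicate 2, Head_Kidney_SDY replicates 2, 3 or 4, Intestine_SDY replicates 1, 3, 4 or 5, Intestine_Control replicates 1, 3 or 5, Liver_SDY replicates 1 or 5, or Liver_Control replicates 1, 3 or 5, and 0 without Head_Kidney_Control replicate 5. The causes were not tested. A replicate block gave 25 genes (16 shared) and a block within tissue 8 genes (2 shared). Same-numbered libraries of different tissues and the same diet had deviations correlating at -0.18 to 0.23 (5 of 26 pairs over 0.1), and 5 of 28 libraries correlated best with their own number. Those of different diets and the same tissue correlated at -0.14 to 0.56 (mean 0.06, 5 of 13 pairs over 0.1), and 9 of 26 libraries correlated best with their own number.

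Some genes not past the threshold changed sign. With all 30 libraries and with 29, the averaged difference was -0.068 and -0.068 for siae, -0.19 and -0.20 for kmo, -0.68 and -0.67 for ddc, -0.25 and -0.26 for acta2, -0.42 and -0.42 for cnn1, -0.63 and -0.64 for tm4sf5 and -2.68 and -2.74 for cpb1, all above 0 in 28. Without head kidney it was -0.14 for ddc, -0.24 for acta2, -0.044 for cnn1 and -0.67 for cpb1, and without liver -0.043 for tm4sf5 and 0.25 for lrp2. With limma voom, alone and with correlated libraries, it was -0.22 and -0.23 for cpb1 and 0.026 and 0.027 for lrp2. The block within tissue gave -0.016 for tm4sf5, -1.47 for cpb1 and 0.0015 for lrp2. Without 1 library it was -0.56 to 1.08 for cpb1 and -0.12 to 0.053 for lrp2, which is -0.04 with 28 libraries.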

Other observations

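Endoplasmic reticulum chaperones, which fold secreted proteins, had 13 of 25 tested members higher under SDY in all 3 tissues (beside 19.8% of all genes) and 0 lower. Their median was 0.15, and 2 members had an unadjusted p under 0.05, 8% of the list beside 16.6% of all genes. DNA replication and mitosis genes had 24 of 51 higher in all tissues and 0 lower (beside 19.8% and 21.6% of all genes). They had a median of 0.16 and 0 members at that p (beside 16.6%). Their median was 0.04 without Liver_SDY replicate 2 and 0.48 without Intestine_Control replicate 4. Complement and clotting genes had 4 of 10 lower in all tissues (beside 21.6% of all genes) and 0 higher. Their median was -0.33 (-0.48 in intestine, -0.19 in liver, 0.05 in head kidney), and it was -0.17 without Intestine_Control replicate 2, -0.53 without Head_Kidney_SDY replicate 1 and -1.71 with all 30 libraries.

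Deviations from the group mean correlated at 0.351 across genes between Head_Kidney_SDY replicate 2 and Liver_SDY replicate 1, the highest of 104 pairs of libraries from different tissues of the same diet with different numbers.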
